A study of Mus musculus with 2 samples.

Results

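The hair follicle homeobox and forkhead factors were 9 genes whose proteins switch other genes on or off while hair follicles form: the forkhead factors Foxn1, Foxe1 and Foxq1, and the homeobox factors Msx1, Msx2, Dlx1, Dlx2, Dlx3 and Lhx2. They were taken by gene name from the array files, which gave 11 probes for the 9 genes among 55676 probes tested with 34820 different names. A probe is a short DNA strand on the array that binds the RNA of its gene. None of the 11 probes passed the test of SOX11-induced against control epidermis, and the littermate pairs disagreed about most of them. After loess, which sets the middle of each array's log2 ratios to about 0, Lhx2, Foxn1 and Dlx3 had a positive ratio of SOX11-induced over control in pair 1 and a negative one in pair 2, while Msx2 was positive in pair 1 and near 0 in pair 2. With median centring in place of loess, only Lhx2 of these 4 was negative in pair 2. Among the 4 pups, the control pup of pair 1 had the lowest level of 6 of the 7 factors that were measured above background on both arrays. That level was not well above background for Dlx2, and the ranking compares pups labelled with different dyes.

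The study asked which genes respond when SOX11, a DNA-binding protein of embryonic skin, is switched on again in the epidermis of newborn mice. Control pups carried K14-rtTA, which puts an activator that works only with doxycycline into cells expressing keratin 14. In skin such cells lie in the basal layer and the outer root sheath of the follicle. SOX11-induced pups carried K14-rtTA together with TRE-Sox11-FLAG, which that activator turns on to give SOX11 with a FLAG tag. All pups were FVB/N, all received doxycycline (Dox) for 12 h, and all were taken at postnatal day 4.5, so the controls shared both the activator and the drug. Each of the 2 arrays measured 1 littermate pair, with the control RNA labelled green (Cy3) and the SOX11 RNA red (Cy5) on both. A dye effect on a probe and an effect of the genotype can therefore not be told apart, although the methods of the study mention a colour swap. The RNA came from sheets of back epidermis separated with dispase, a bulk sample in which fewer cells of a type and less RNA per cell cannot be told apart.

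Several facts hold for the arrays as a whole. In each channel, 37.5% to 42.6% of the spots for genes exceeded background clearly. Pair 1 and pair 2 correlated with a Pearson r of 0.529 across the log2 ratios of all probes, which are not independent replicates. The probes of Sox11, at bases 7437 and 7983 of its transcript, were below background in both channels of both arrays. They could therefore not check the labels. The transgene was built from the protein-coding part of Sox11, and whether these probes bind its RNA was not tested. The study itself showed the tagged SOX11 protein by immunofluorescence after Dox. Xist, the RNA that coats the inactive X chromosome, was above background in both pups of pair 1 and in neither of pair 2, while probes of the Y-linked Ddx3y and Eif2s3y were above background in both pups of pair 2 and in neither of pair 1. The littermates of a pair thus matched in these sex-linked genes, whereas the pairs differed. The animals, their sex and the array cannot be told apart as sources of a difference between the pairs.

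Homeobox and forkhead proteins act at several steps of follicle formation. Signals of the WNT, BMP and hedgehog families pass between the epidermis and the underlying dermis, an epithelial plug grows down, and matrix cells at its base then give rise to the inner root sheath and the hair shaft. Lhx2 is a LIM homeobox factor of the early hair bud and of the stem cells of the bulge. Msx1 and Msx2 are homeobox repressors that respond to BMP signals, and mice without Msx2 lose their hair in cycles. Dlx3 is needed for the shaft and the inner root sheath. Foxn1 is the gene mutated in nude mice, whose hair shafts form but keratinize poorly, and Foxq1 is the gene mutated in satin mice, in which the medulla of the shaft is abnormal. Dlx1 and Dlx2 are neighbouring genes best known from the forebrain and the face, and Foxe1 is best known from the thyroid.

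To show the regulatory sequence next to these genes, the 250 bases before each annotated start were taken from RefSeq on the build GRCm38.p6. Windows were given for 6 of the 9 genes (7 windows, since Lhx2 had a pair of starts), and none was given for Foxe1, Foxq1 and Dlx3. The windows of Foxn1 (chr11:78386609-78386858, minus strand) and Msx2 (chr13:53472781-53473030, minus strand) are shown because they were the only 2 of the 7 that held TAATTA, the core that many homeodomain proteins bind. They read 5′ to 3′ towards the start, with TAATTA in capitals.

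Foxn1: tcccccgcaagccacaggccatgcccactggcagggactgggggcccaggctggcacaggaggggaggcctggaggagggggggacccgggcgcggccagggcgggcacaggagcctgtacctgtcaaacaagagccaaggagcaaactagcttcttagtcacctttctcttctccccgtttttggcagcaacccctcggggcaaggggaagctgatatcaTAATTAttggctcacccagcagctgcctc

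Msx2: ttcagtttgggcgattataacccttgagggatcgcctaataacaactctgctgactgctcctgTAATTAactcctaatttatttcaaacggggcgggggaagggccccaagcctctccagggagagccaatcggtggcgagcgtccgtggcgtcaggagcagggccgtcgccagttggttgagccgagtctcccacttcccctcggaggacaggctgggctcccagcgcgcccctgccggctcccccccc

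The capitals begin 29 bases before the start of Foxn1 and 187 bases before that of Msx2. TAATTA reads the same on both strands and occurred in 4.84% of 32851 such windows of the genome. The related core TAATTG was in none of the 7 member windows and in 7.17% of all windows. Both strands were searched for each motif. The SOX core ACAAAG was in none of the 7 member windows and in 16.5% of all windows. Its variant ACAATG was also in 0 of 7, against 3512 of all 32851 windows. A further SOX core, AACAAT, which can overlap the latter, was in 0 of 7 member windows and in 9.42% of all. The TCF/LEF core CTTTGA was likewise in 0 of 7, against 13.8% of all windows. The forkhead core GTAAACA was in 0 of 7, against 3.17%. GACGC, the short core bound by FOXN1 itself, was in 3 of the 7 windows (of Lhx2, Dlx1 and Msx2), against 22.6% of all. The Foxn1 and Msx2 windows had a GC content of 63.2% and 61.6%, and the other member windows had 66.4% to 72.8%, against a median of 52.4% over all windows. These matches are letters in a window of 250 bases, not measured binding.

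How well each factor could be measured varied. Of the 11 probes, 7 (1 each for Foxn1, Foxq1, Msx1, Msx2, Dlx2, Dlx3 and Lhx2) were well above background on each array in 1 channel or both, and 6 of these were so in both channels of both arrays, the exception being Dlx2 in the control of pair 1. A probe of Foxe1 was above background on array 2 alone. The other probe of Foxe1 and both probes of Dlx1 were above background on neither array. No member spot was saturated or marked as an outlier by the scanner software. The measured quantity was the log2 ratio of SOX11-induced over control, which is positive where the SOX11-induced pup was brighter, and its error is the SD of the 2 pairs.

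Over all probes, 2.9% were higher and 1.35% were lower at an adjusted p under 0.05 in the limma fit, and 0.451% (251 probes) also passed a log2 ratio of 1.5, the threshold of the study's methods. Of the 11 member probes, 0 passed in either direction. At an unadjusted p under 0.05, 2 of the 11 (Msx1 and Msx2) were higher and 0 were lower, where 11.9% of all probes were higher. Restricted to the 21782 probes above background on both arrays, 9.72% passed the adjusted threshold in either direction, and again 0 of the 7 member probes did. The zero point matters here: with median centring in place of loess, which moved the median of the probes above background from 0.04 to 0.49 in pair 1 and from 0.03 to 0.57 in pair 2, 4 member probes (Foxn1, Msx1, Msx2 and Dlx3) passed as higher, where 17975 of all probes passed in either direction. With 2 pairs, an exact sign-flip test of a single probe cannot give a p under 0.5, so a call in this fit rests on the spread borrowed from all probes.

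**Figure D1:**
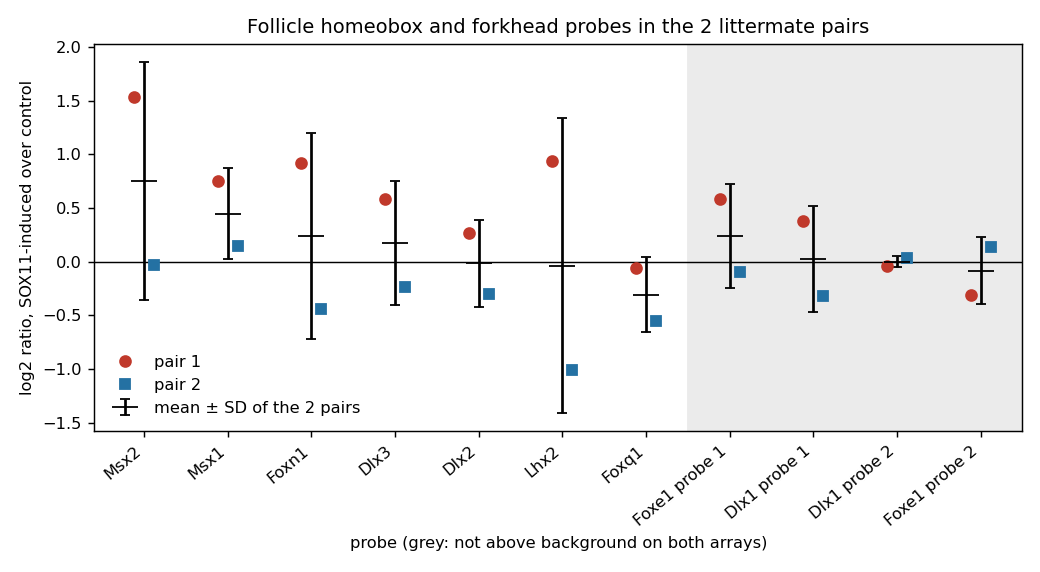
Log2 ratio of SOX11-induced over control epidermis for each of the 11 probes (y axis), with pair 1 as circles, pair 2 as squares and bars for the mean ± SD of the 2 pairs. Of the 7 probes outside the grey area, all have pair 1 above pair 2, with the pairs of Lhx2 lying at 0.93 and -1.01.

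Among the homeobox factors tied to BMP signals, Msx2 had the highest mean of the 11 probes. Its probe lies at chr13:53562318-53562377 (mm9, minus strand), which the array files place at base 2034 of its transcript. Before normalization, its brightness in scanner units was 215 in the control and 1192 in the SOX11-induced pup of pair 1, and 975 in the control and 2184 in the SOX11-induced pup of pair 2. The control of pair 1 was the low value, and loess then took out the general difference in brightness between the red and the green channel. The log2 ratio was 1.54 in pair 1, or 2.90-fold, and -0.03 in pair 2, or 0.977-fold. The mean was 0.75 ± 1.11 (SD, n = 2 pairs), with an adjusted p of 0.194 in limma. The 95% interval of the mean from that fit, which borrows spread from all probes, ran from 0.08 to 1.43.

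Msx1 was measured at chr5:38212305-38212364 (mm9, minus strand), at base 1296 of its transcript. Its brightness was 58.0 and 162 in the control and SOX11-induced pup of pair 1, and 112 and 247 in those of pair 2. The log2 ratios were 0.75 and 0.14, and Msx1 was thus higher in the SOX11-induced pup of both pairs. The mean of 0.45 ± 0.43 (SD, n = 2 pairs) missed the threshold with an adjusted p of 0.197 in limma. Its 95% interval ran from 0.04 to 0.85.

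Dlx3, the factor of the shaft and the inner root sheath, was measured by a probe of 60 bases listed at chr11:94986262-94986357 (mm9, plus strand), a span of the genome longer than the probe. Its brightness was 735 and 2214 in the control and SOX11-induced pup of pair 1, and 1597 and 3153 in those of pair 2. The log2 ratio was 0.58 in pair 1 and -0.24 in pair 2, with a mean of 0.17 ± 0.58 (SD, n = 2 pairs) and an adjusted p of 0.666 in limma. The 95% interval, from -0.28 to 0.63, covered 0.

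The probe of Dlx2 (chr2:71381553-71381612, mm9, minus strand) was close to background. Its brightness over a background of 23 to 59 was 45.5 and 90.7 in the control and SOX11-induced pup of pair 1, and 63.8 and 96.2 in those of pair 2. The log2 ratios were 0.27 and -0.30, with a mean of -0.02 ± 0.41 (SD, n = 2 pairs; adjusted p of 0.968 in limma). Its partner Dlx1 had probes at chr2:71371499-71371558 and chr2:71367411-71367470 (mm9, plus strand). Their log2 ratios lay between -0.32 and 0.38, with means of 0.03 and -0.00, and no level can be given for them beyond that they were not well above background. The sequence of the second of these probes was also found 91 to 32 bases before the RefSeq start of Dlx1 on GRCm38.p6, so it lies upstream of that start.

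Lhx2 showed the widest disagreement of the pairs. Its probe (chr2:38224933-38224992, mm9, plus strand, base 1970 of the transcript) had a brightness of 135 in the control and 482 in the SOX11-induced pup of pair 1, and of 762 and 862 in those of pair 2. The controls thus differed much more than the SOX11-induced pups did. The log2 ratio was 0.93 in pair 1, or 1.91-fold, and -1.01 in pair 2, or 0.497-fold. These nearly cancelled in a mean of -0.04 ± 1.37 (SD, n = 2 pairs), with an adjusted p of 0.965 in limma and a 95% interval from -0.84 to 0.76. The sign of this mean turned with the measure of spot brightness, being 0.08 with the median in place of the mean of the pixels, and it was 0.54 with median centring in place of loess.

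Among the forkhead factors, the pairs of Foxn1 parted widely too. Its probe (chr11:78171867-78171926, mm9, minus strand, base 2366 of the transcript) had a brightness of 164 in the control and 592 in the SOX11-induced pup of pair 1, and of 641 and 1071 in those of pair 2. The log2 ratio was 0.92 in pair 1, or 1.89-fold, and -0.44 in pair 2, or 0.738-fold. The mean was 0.24 ± 0.96 (SD, n = 2 pairs), with an adjusted p of 0.653 in limma and a 95% interval from -0.37 to 0.85.

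Foxq1, the gene of the shaft medulla, was the only one of the 7 with a lower value in the SOX11-induced pup of both pairs. At chr13:31652206-31652265 (mm9, plus strand), its brightness was 239 and 461 in the control and SOX11-induced pup of pair 1, and 460 and 712 in those of pair 2. The log2 ratios were -0.06 and -0.55, with a mean of -0.31 ± 0.35 (SD, n = 2 pairs) and an adjusted p of 0.338 in limma. The 95% interval from -0.69 to 0.08 covered 0, and with median centring the mean was 0.27.

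Foxe1 had 1 probe above background on array 2 alone (chr4:46357310-46357369, mm9, plus strand, base 244 of the transcript), where the log2 ratio was -0.10. On array 1 its ratio was 0.58 from spots not well above background, and the mean was 0.24 ± 0.48 (SD, n = 2 pairs; adjusted p of 0.499 in limma). The other probe, at chr4:46359178-46359237 and base 2697 of an Ensembl transcript, had log2 ratios of -0.31 and 0.13 and was not well above background. The 2 probes of Foxe1 therefore differed in sign in each pair, at brightness where a ratio carries little weight.

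The disagreement between the pairs ran across the set. The sign was positive in pair 1 and negative in pair 2 for 7 of the 11 probes and for 5 of the 7 above background, a pattern held by 13.5% of the probes above background on both arrays. With median centring it was held by 2 of the 7, and with median spot brightness by 4 of the 7. Only Foxq1 and Msx1 had the same sign in both pairs. Over the 7 probes, the median log2 ratio was 0.75 in pair 1 and -0.30 in pair 2, against 0.04 and 0.03 over all 21782 probes above background. The median SD of the pairs was 0.581 for the 7 probes and 0.132 for all.

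The value of pair 1 exceeded that of pair 2 in 7 of 7 probes. This difference was 1.94 for Lhx2, 1.57 for Msx2, 1.36 for Foxn1 and 0.82 for Dlx3. All 4 lay above the 95th percentile of the same difference over all probes above background, at percentiles 99.4, 99.1, 98.8 and 97.2. Msx1 (0.60), Dlx2 (0.57) and Foxq1 (0.49) lay just inside it, at percentiles 94.9, 94.4 and 92.6. The median was 0.82 for the 7 probes and -0.00 for all, with the 5th and 95th percentiles of all at -0.49 and 0.61.

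**Figure D2:**
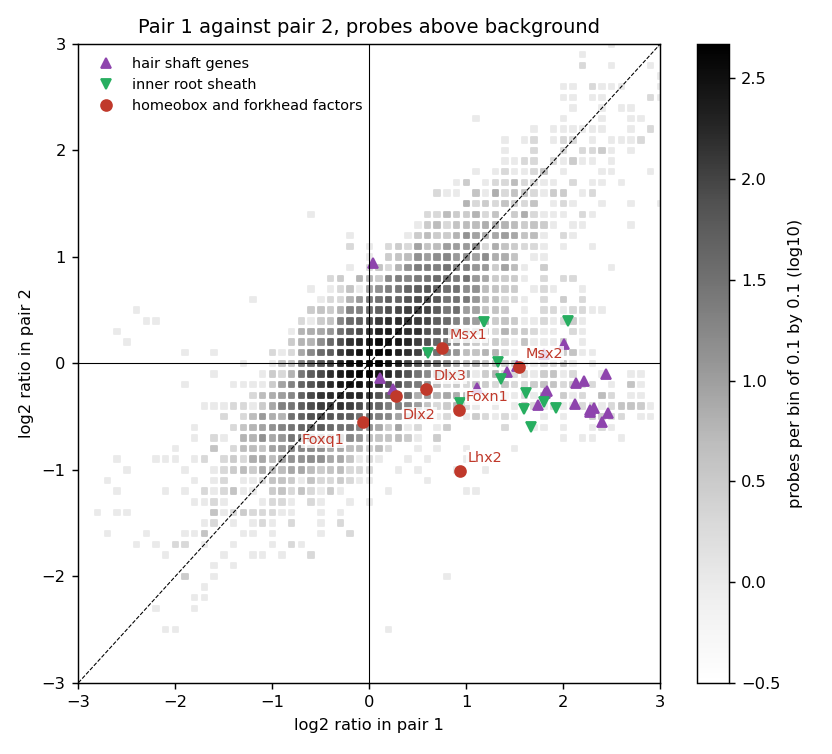
Log2 ratio in pair 1 (x axis) against that in pair 2 (y axis) for probes above background on both arrays, with all probes as grey bins from -3 to 3 and the dashed line where the pairs are equal. The 7 homeobox and forkhead probes (circles) lie below the line, as do most of the hair shaft (upward triangles) and inner root sheath (downward triangles) genes, whose medians in pair 1 (1.92 and 1.60) lie to the right of all 7.

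Each pup's own level showed where the pairs parted. After normalization between channels and arrays, levels are given as log2 brightness and compared only between pups for the same probe, and only pups labelled with the same dye are free of a dye difference. For Lhx2 the levels of the control pups were 7.56 in pair 1 and 10.00 in pair 2, and those of the SOX11-induced pups were 8.49 and 8.99. For Msx2 the controls had 8.29 and 10.38, and the SOX11-induced pups had 9.83 and 10.35. For Foxn1 the controls had 7.86 and 9.76, and the SOX11-induced pups had 8.79 and 9.32. In all 3 genes the control of pair 1 was lowest, the control of pair 2 was highest, and the SOX11-induced pups lay between them.

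Dlx3 had the same order at smaller distances, with 10.13 and 11.11 in the controls and 10.72 and 10.88 in the SOX11-induced pups. Msx1 had 6.06 and 7.03 in the controls and 6.81 and 7.18 in the SOX11-induced pups, and Dlx2 had 5.44 and 5.91 against 5.71 and 5.61. Foxq1 differed from the rest, since its lowest level, 8.40, was that of the SOX11-induced pup of pair 1, close to the 8.46 of the control of that pair. The controls and the SOX11-induced pups overlapped in each of the 7 probes.

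The control of pair 1 was below the control of pair 2 in 7 of 7 probes, where 45.9% of all probes above background had that order. The difference of the controls had a median of -0.98 over the 7 probes, from -2.44 for Lhx2 to -0.47 for Dlx2, against 0.03 over all probes and a 5th percentile of -0.65. The SOX11-induced pups differed less, with a median of -0.37 between pair 1 and pair 2. The SOX11-induced pup of pair 1 was below that of pair 2 in 6 of 7 probes, against 10128 of 21782 probes above background. For Lhx2, Msx2 and Foxn1 the SOX11-induced pups differed by -0.50, -0.52 and -0.53, past the 5th percentile of -0.45 over all probes. The other probes lay inside it. The control of pair 1 was the lowest of the 4 pups for 6 of 7 probes, against 30.4% of all probes above background. This ranking compares across the dyes, and for Dlx2 the level of that control was not well above background.

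**Figure D3:**
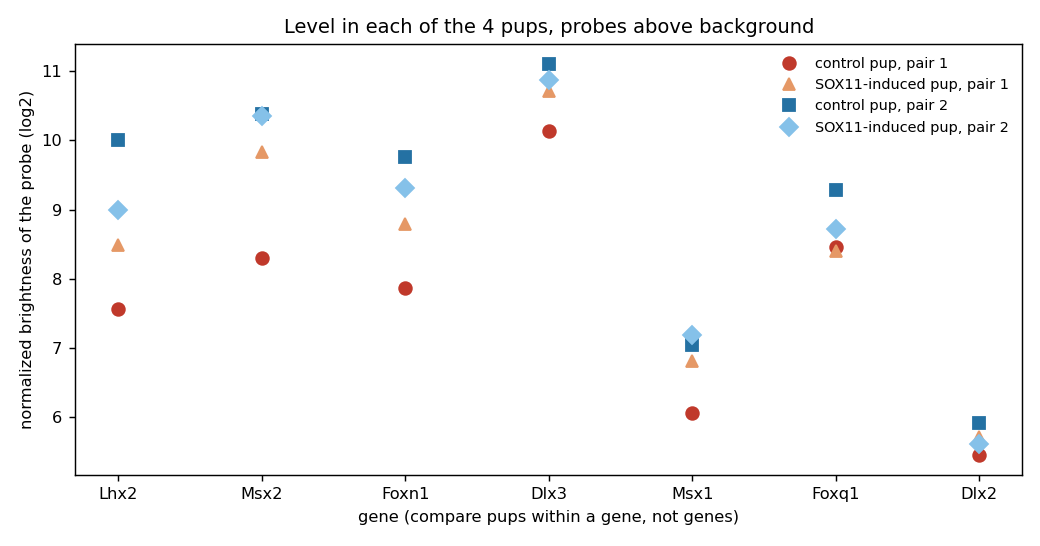
Normalized log2 brightness (y axis) of the 7 probes above background in each of the 4 pups, with 1 point a pup. The control pup of pair 1 is lowest for every gene but Foxq1, at 7.56 for Lhx2 against 10.00 in the control pup of pair 2. For Dlx2 the level of the control pup of pair 1 is not well above background. Only pups labelled with the same dye are free of a dye difference.

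The log2 ratios of hair shaft and inner root sheath genes also parted between the pairs. Of 21 genes of the hair shaft and its keratinization, 20 were above background on both arrays, 0 passed the test in either direction, and 19 of the 20 had a higher log2 ratio in pair 1 than in pair 2. The list's median log2 ratio over its measured genes was 1.83 in pair 1 and -0.24 in pair 2. Krt33a, an acidic hair keratin, had 2.44 and -0.10 (adjusted p of 0.177 in limma), and Prr9 had 1.52 and -0.02 (0.189). Of 11 genes of the inner root sheath, all above background, 11 had a higher ratio in pair 1, with medians of 1.60 and -0.27 and again 0 past the test. Krt71 had 1.80 and -0.36 (0.327), and Krt25 had 1.67 and -0.60 (0.485).

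In the control of pair 1, these compartments were low as well. The control of pair 1 was the lowest pup for 19 of 20 hair shaft genes and for 11 of 11 inner root sheath genes. The SOX11-induced pup of pair 1 was likewise below that of pair 2 for 19 of 20 and 11 of 11. The log2 of the summed level of the hair shaft genes was 16.02 in the control and 18.04 in the SOX11-induced pup of pair 1, and 18.83 and 18.58 in those of pair 2. For the inner root sheath genes it was 16.4 and 18.0 in pair 1, and 18.6 and 18.3 in pair 2. The control of pair 1 thus held the lowest sum of both lists, and the SOX11-induced pup of pair 1 held the next lowest. The part of these compartments in the ratios of Msx2, Lhx2, Foxn1 and Dlx3 was not tested.

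Markers of other cell types varied in how the pairs compared. For 10 measured genes of the interfollicular epidermis, the median log2 ratio was 0.36 in pair 1 and 0.34 in pair 2, with 0 past the test. The summed level of these genes was 19.2 and 19.6 in pair 1 and 19.0 and 19.5 in pair 2. Lor, which encodes the envelope protein loricrin, had a mean of 0.50 (adjusted p of 0.0998 in limma), and Sbsn had 0.34 (0.234). Of 10 leukocyte genes, 9 were above background and 0 passed the test, and their summed level was higher in pair 1 (15.2 in the control and 14.9 in the SOX11-induced pup) than in pair 2 (13.7 and 13.4). Among them, Cd74 and H2-Ab1, both of antigen presentation, had means of -0.50 and -0.28 (adjusted p of 0.104 and 0.327). The leukocyte genes thus differed between the pairs in controls and SOX11-induced pups alike.

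Of 15 genes of dermal fibroblasts, 6 were above background and 1 fell, Dcn (mean -0.79, adjusted p of 0.0276 in limma), with summed levels from 11.3 to 11.6 in the 4 pups. The pairs parted in the opposite direction here, with pair 1 higher for 1 of the 6 and a median difference of -0.57. Of the collagens, 3 named after their values were seen had -0.17 and 1.14 (Col1a2), -0.17 and 0.92 (Col3a1) and -0.03 and 0.77 (Col1a1) in the pairs, and none of the 3 passed the test. Col6a1, also on the list and above background, was lower in both pairs, at -0.63 and -0.32, and did not pass either. Of 12 genes of the dermal papilla, the cluster of dermal cells that signals to the matrix, 5 were above background, and the defining genes Corin, Alpl, Rspo3 and Sox2 were not. The only one to pass was Prom1, which rose by 3.46 (adjusted p of 0.000163 in limma). Of the 5 above background, 4 had the higher ratio in pair 1, with a median difference of 0.87 between the pairs, and the control of pair 1 was the lowest pup for 5 of 5, as for most of the homeobox and forkhead factors. In 9 melanocyte genes and 8 sebaceous gland genes 0 passed. All 8 melanocyte genes above background had the higher ratio in pair 1, with medians of 0.56 and 0.02. Dct had 0.29 and -0.00 in the pairs and Pmel had 0.59 and -0.30, and in the sebaceous gland, where 7 of 8 had the higher ratio in pair 1, Plin2 and Scd1 had means of 0.50 and -0.34. Of 6 endothelial genes, 3 were above background and Egfl7 fell by 1.01 (adjusted p of 0.0111).

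The outer root sheath, the companion layer and the bulge gave a mixed picture. Of 11 genes, 9 were above background, 1 rose and 2 fell. The ratio was higher in pair 1 for 7 of the 9, with a median difference of 0.69 between the pairs. Krt15, a keratin of the basal layer and the bulge, fell by 1.03 (adjusted p of 0.00621 in limma), with -1.08 and -0.99 in the pairs. Krt6a, a keratin of the companion layer and of wounded epidermis, rose by 1.38 (0.0455), with 2.22 and 0.53. Lgr5, a receptor of follicle stem cells, fell by 1.31 (0.0234) but was not above background on both arrays.

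**Figure D4:**
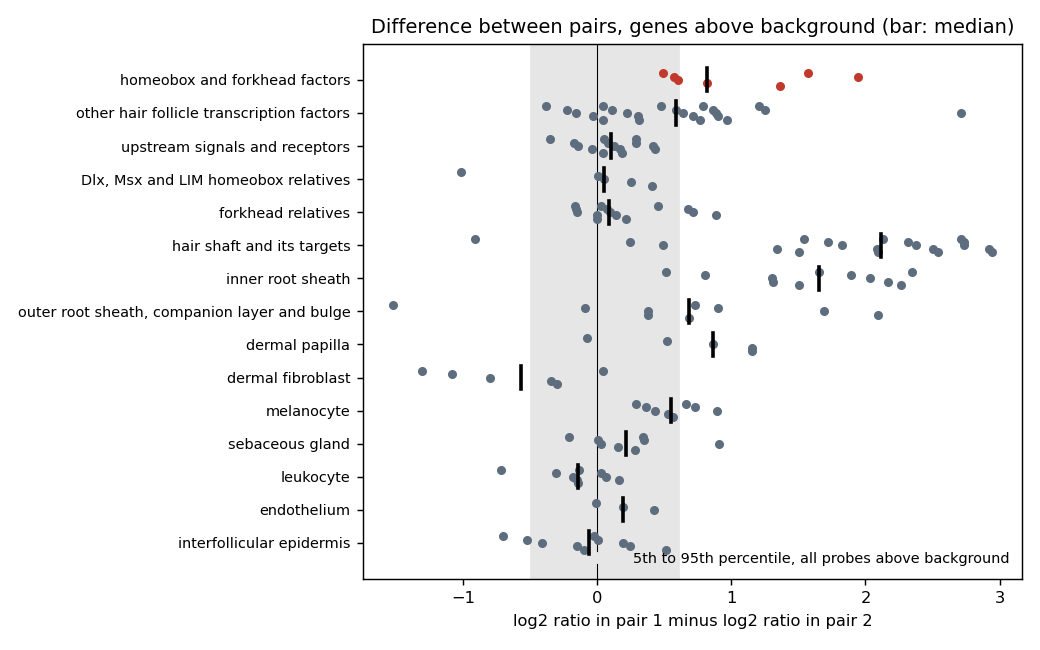
Log2 ratio in pair 1 minus that in pair 2 (x axis) for each gene above background on both arrays, by list (y axis), with a vertical bar at each list's median and grey between the 5th and 95th percentiles of all probes above background, -0.49 and 0.61. The homeobox and forkhead factors (top) have a median of 0.82. Nearest to it are the dermal papilla list at 0.87 and the outer root sheath list at 0.69. The dermal papilla median rests on 5 genes, none of them the defining Corin, Alpl, Rspo3 or Sox2, which were not above background. The medians of the other lists run from -0.57 for dermal fibroblasts to 2.11 for the hair shaft.

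Other transcription factors of the follicle gave a mixed account. Of 28 genes, all measured and 23 above background, 1 rose and 1 fell. Foxp1, a forkhead factor of follicle stem cell quiescence, rose by 0.93 ± 0.63 (SD, n = 2 pairs; adjusted p of 0.0409 in limma), with 1.38 and 0.49 in the pairs. Gata3, a factor of the inner root sheath lineage and of the epidermis, fell by 0.76 ± 0.02 (0.0241), with -0.78 and -0.75. All 28 genes together had a median of 0.28 in pair 1 and of -0.29 in pair 2, and 19 of the 23 had the higher value in pair 1. Hoxc13, a homeobox factor that turns on hair keratins, had 1.01 and -0.19. Tbx1, chosen after its values were seen as the widest split of the list, had 0.75 and -1.96, a spread exceeding that of Lhx2.

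Among the relatives of the homeobox factors, 18 genes of the Dlx, Msx and LIM families and their partners were measured and 5 were above background. Lmo4, a LIM-only partner of LIM homeobox factors, rose by 0.71 (adjusted p of 0.0366 in limma), with 0.84 and 0.59 in the pairs. Dlx4 fell by 0.74 (0.0399), with -0.53 and -0.94. For this list pair 1 had a median of 0.05 and pair 2 of 0.10 over all 18, and 0.41 and 0.51 over the 5 above background. Dlx5, named after its values were seen, parted the other way, with -0.25 in pair 1 and 0.76 in pair 2, a wider difference than that of Dlx3. Of 41 other forkhead genes, 14 were above background, 2 rose and 0 fell. These 2 were Foxp4, which rose by 1.01 (0.00702) with 1.08 and 0.94 in the pairs, and Foxp1. All 41 genes together had a median of 0.01 in pair 1 and of -0.07 in pair 2, and over the 14 above background it was -0.03 and -0.13.

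Signals and receptors upstream of these factors were also compared. Of 19 genes, 14 were above background, 0 rose and 1 fell. Wnt10a, a WNT ligand of epidermis and follicle, fell by 2.28 ± 0.06 (SD, n = 2 pairs; adjusted p of 0.000124 in limma), with -2.24 and -2.31 in the pairs. This probe also passed the log2 threshold of 1.5. All 19 genes together had a median of 0.09 in pair 1 and of -0.07 in pair 2, and over the 14 above background it was -0.05 and -0.14. Wnt10a was named because it passed the test, and the test favours probes whose pairs agree. Its close values therefore do not measure how well the pairs agreed in general.

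The listed genes nearest to each factor over the log2 ratios of the 2 arrays were then found among 141 candidates above background on both arrays. With 2 values a gene, the distance (in log2 units) is a description only. Nearest to Msx2 were Prr9 at 0.02 and Krt35, a hair keratin, at 0.13. Nearest to Foxn1 were Padi1, an enzyme that modifies inner root sheath proteins, at 0.07 and Hoxc13 at 0.26. Dlx3 lay nearest to the melanocyte gene Pmel (0.07) and the keratin Krt17 (0.10). Lhx2 had no close neighbour, with Padi1 at 0.64 and Cux1 at 0.72. Foxq1 lay nearest to the hedgehog receptor Ptch1 (0.06) and the basal keratin Krt14 (0.08), and Msx1 to the epidermal keratin Krt2 (0.07) and the vitamin D receptor Vdr (0.11). Dlx2 lay nearest to the desmosomal gene Dsc2 (0.07) and the forkhead gene Foxc1 (0.10).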

How the data were processed

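RNA of 4 pups (2 littermate pairs) was compared on 2 two-colour mouse arrays. The intensity values that the authors deposited are, per the file headers, spot and background brightness from Agilent Feature Extraction 10.7.3.1, not normalized, with probe positions on mm9. The series table that the authors deposited holds log2 ratios and served as an alternative.

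In R 4.3.3 with limma 3.58.1, mean brightness and median background were corrected by normexp (offset 16), each array was centred by loess, and flagged spots (194 and 186) were left out. Spots of a probe were averaged. An intercept was fitted to the 2 ratios of each probe with moderated variances (prior of 8.14 degrees of freedom, prior SD 0.223), and p-values were adjusted by Benjamini-Hochberg over 55676 probes, also for the members. Each ratio is a paired difference. Pup levels were log2 brightness after loess and Aquantile scaling. For a list, the brightest probe of a gene was used. Both arrays came from 1 slide and 1 scan, so neither was a batch to test. The number of arrays limits the precision. The p-values and 95% intervals rest mainly on the spread borrowed from all probes, and less on the spread between these 2 pairs. The labels name no separate litters for the pairs.

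The members and lists were chosen with earlier results of these data known. Of each list, up to 4 genes past the adjusted threshold with the largest means were named, or else the 2 brightest, beside the 2 listed genes nearest to each member. Offset, normalization, signal column, dim-probe filter, flags, variance prior, threshold and each pair were varied. The fit was checked on simulated data.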

Additional observations from a re-analysis of the deposited data

How the results depend on the processing

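Of the 11 member probes, 0 passed the adjusted threshold under every alternative but median centring without loess, under which 4 did: Foxn1 (0.83, adjusted p of 0.0226 in limma), Msx1 (0.82, 0.00504), Msx2 (1.38, 0.00336) and Dlx3 (0.83, 0.00757). That setting moved the median of all probes above background to 0.49 and 0.57 in the pairs, and it called 803 probes over all (794 higher and 9 lower) in place of 251 (203 and 48). Under it Foxq1 (0.27), Dlx2 (0.0732) and Lhx2 (0.54) turned positive, and 2 of the 7 probes above background were positive in pair 1 and negative in pair 2. Median spot brightness and the series table turned Lhx2 to 0.0793 each, and processed signals turned Dlx2 to 0.12. Processed signals called 0 probes in all, 0 higher and 0 lower by limma, with 892 past the log2 threshold at an unadjusted p under 0.05. A linear 1.5-fold threshold gave 2368 (1614 higher, 754 lower), since it admits smaller changes, and an offset of 50 gave 31 lower. The causes of the other changes were not tested. At an unadjusted p under 0.05, 0 members passed with processed signals or with the filter on dim probes. Control spots without weight in loess, an alternative chosen after seeing the data, gave 252 calls and 0 members.

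The log2 ratio of pair 1 exceeded that of pair 2 in 7 of 7 probes under all 9 alternatives that used both arrays and refitted the values. With either pair left out, a value with no test, Foxn1 ranged from -0.44 to 0.92, Foxe1 from -0.10 to 0.58, Foxq1 from -0.55 to -0.06, Msx1 from 0.14 to 0.75, Msx2 from -0.03 to 1.54, Dlx2 from -0.30 to 0.27, Dlx3 from -0.24 to 0.58 and Lhx2 from -1.01 to 0.93. The fit was already paired, since each array's ratio is the difference within a littermate pair, and no further block can be fitted to 2 ratios. Counts of calls with a pair left out were not run, since a lone pair gives no test. Signal over background limits Dlx2, Foxe1 and Dlx1 most.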
